A study of Ovis aries with 95 samples.

Results

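The hypothalamus of the fetal sheep was compared between 80 d and 120 d of gestation. The rule took the 4 hypothalamus arrays labelled 80 d and the 4 labelled 120 d, 8 of the 95 arrays of the series, and used all probes for ovine genes on the array. Each array measured the RNA of the hypothalamus of 1 animal with a single dye, so its values are levels and not ratios. The fetuses were untreated, of the species Ovis aries, and differed by the label in gestational age alone. Cortex, brainstem and hippocampus were collected too, at 80, 100, 120, 130 and 145 d and from lambs on day 1 of life, and the 100 d hypothalamus arrays, 4 in number, are used below to place a change within the interval. The methods of the study give 1 set of twins in each age group without marking them in the labels, so the arrays were treated as independent. The p values of this comparison rest on the spread within the ages over all 24 hypothalamus arrays, not on the 8 alone.

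The hypothalamus joins the nervous system to the endocrine system. Its neurons make peptides such as oxytocin, growth hormone releasing hormone and the products of pro-opiomelanocortin, which control the pituitary, feeding, growth and fluid balance, and in the fetus of the sheep it is the upper level of the axis that drives the rise of cortisol before birth. In this long gestation most neurons are born early, and astrocytes, oligodendrocytes and myelin appear later, before birth. Whole tissue was measured, so that fewer cells of a type and less RNA per cell cannot be told apart.

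From 80 to 120 d the largest rises among the genes with a symbol that passed were in transferrin (TF), the small heat shock protein CRYAB and the prostaglandin D synthase PTGDS, and the largest falls were in the RNA binding protein YBX1, the glutamate receptor subunit GRIA2 and the polyamine enzyme ODC1, although that of GRIA2 was lost with outlier-marked spots kept. Of 12916 genes tested, 892 passed in limma (Benjamini-Hochberg adjusted p under 0.05), which is 6.91% of all. Higher levels at 120 d were found for 393 genes (3.04%) and lower levels for 499 (3.86%). Every 120 d array lay above every 80 d array for 801 genes (6.2%) and below for 1029 (7.97%). The median change of all genes was -0.03 on the log2 scale. Changes were positive for 5859 genes and negative for 7057, and 2492 had an unadjusted p under 0.05 in limma. Most of the array is known by accession only, and 874 of the tested genes had a symbol, of which 63 passed (7.21%), 32 of them higher and 31 lower at 120 d.

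**Figure D1:**
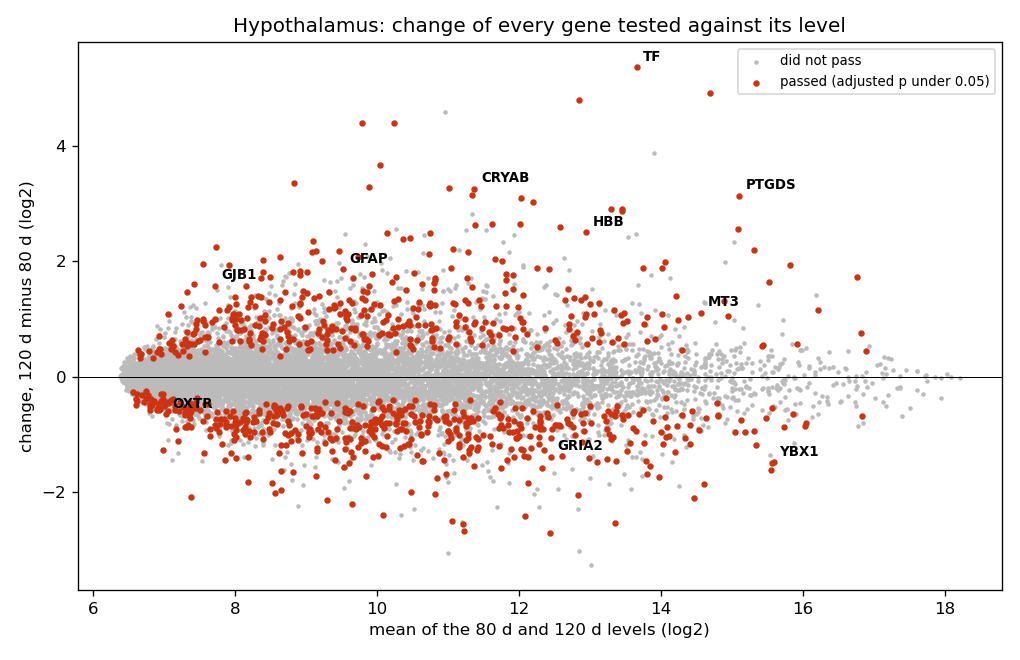
Change of each of the 12916 tested genes from 80 to 120 d (y axis, log2) against the mean of its levels at both ages (x axis, log2). Each point is 1 gene, red points passed in limma (892 genes), and TF, at a change of 5.36, is the highest point.

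Signal was well above background for 75.3 to 84.4% of the gene spots on the 8 arrays, and arrays of a group correlated at 0.941 to 0.981. They lay on 4 slides. Slides 1, 2 and 3 held both ages. The array of 120 d replicate 4 was alone of the 8 on its slide. The array of 80 d replicate 1 was the highest of the 8 for 32.1% of the genes, and 670 genes passed without it. Peptides that define the hypothalamus were read as a check of the label. The median level over the 8 arrays was 11.05 for oxytocin (OXT) against 7.78 in cortex, 8.12 for growth hormone releasing hormone (GHRH) against 6.46, and 8.17 for agouti related peptide (AGRP) against 6.47. Peptides that other regions make as well were not higher: somatostatin (SST) had a median of 13.27 against 13.66 in cortex and neuropeptide Y (NPY) 11.43 against 12.17, and the transcription factor ARNT2, of the hypothalamic identity list, had 6.87 against 6.98. In hippocampus the medians of OXT, GHRH and AGRP were 8.17, 6.55 and 6.51. The peptide gene NPVF was lower here than in hippocampus (9.20 against 10.36), and the peptide gene PMCH was close to it (7.49 against 7.35). Of the 10 pituitary markers tested none passed in limma or had an unadjusted p under 0.05, and FSHB and POU1F1 lay close to the lowest signals. Prolactin (PRL) had 7.14, 7.78, 7.04 and 6.63 at 80 d and 6.69, 6.98, 6.92 and 8.33 at 120 d, highest in 120 d replicate 4. The glycoprotein hormone subunit CGA ranged from 7.38 to 12.04, highest in 80 d replicate 2. At these ages the highest CGA levels were 6.59 in cortex, 6.63 in brainstem and 6.55 in hippocampus. PRL went the other way, with a median of 10.46 in brainstem against 7.01 in hypothalamus. Whether the dissections held pituitary tissue was not tested, and a comparison of ages cannot show it.

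The array carries oligonucleotides of 60 bases. The first 30 bases, counted from the 5′ end, of those behind the main results are printed here to show which values rest on a single stretch of a transcript and which on several. Capitals mark runs of at least 12 bases that the printed stretches of oligos for the same gene have in common.
TF oligo: gccctcacaatttggtggtggcgcctctgc
CRYAB oligo: acccgtgaagagaagccggctgtcactgca
PTGDS oligo: aggaaggcattgtgttcctgcccaagactg
GJB1 oligo: atgagatcaacaagctgctgagtgagcagg
GRIA2 oligo: ttacaagtcaagggccgaggcgaagcgaat
GJB2 oligo 1: gacttacagagattgcttgggactgtttta
GJB2 oligo 2: tcttcttccgtgtcatcttcgaggctgcct
GJB2 oligo 3: tcttcatgatcgcagtgtctggaatttgca
GJB2 oligo 4: GCTCAATGTCACTGAGCTGTGTTACTTGCt
GJB2 oligo 5: tGCTCAATGTCACTGAGCTGTGTTACTTGC
GFAP oligo 1: TAGTTAATTTCCCCAGAATTGAGTTCCcac
GFAP oligo 2: tgcTAGTTAATTTCCCCAGAATTGAGTTCC
ISL1 oligo 1: AAGCAGCTCCAGCAACAGCAGCCGAATGat
ISL1 oligo 2: tgAAGCAGCTCCAGCAACAGCAGCCGAATG
YBX1 oligo 1: ttcaattaccgacgcagacgcccagaaaac
YBX1 oligo 2: tccacgcaattaccagcagaattaccagaa
OXTR oligo 1: gcagccaagtaaaactgaggtgaaaaatgt
OXTR oligo 2: cttgagaaaggtagtaagtataagattggt
HBB oligo 1: atcttgacgacctcaagggcacctttgctc
HBB oligo 2: gcatctggcctctgcttaatatagacactt
fetal beta globin oligo: aaagtccaggtttgcagaaaggacacaact
TF, CRYAB, PTGDS, GJB1 and GRIA2 were each measured by 1 oligo. The pairs for GFAP and ISL1 share runs of 57 and 58 bases over their full length and are close to a single measurement, while the pairs for YBX1, OXTR and HBB share no run over 8 bases. Of the 5 oligos for GJB2, numbers 4 and 5 share 59 bases and number 3 overlaps them by 26 or 27, so that they cover 3 separate stretches.

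Of the 5 tested genes listed for oligodendrocytes, the cells that make myelin, 3 rose and none fell. Over all genes 3.04% rose and 3.86% fell. The median change over the 5 was 1.57 against -0.03 for all genes. This and the other lists were chosen with earlier results of these data known. Their counts and medians are therefore descriptive only. TF, the iron carrier that oligodendrocytes make in brain, had levels of 10.63, 11.11, 10.39 and 11.79 on the 80 d arrays and 16.64, 16.85, 15.68 and 16.18 on the 120 d arrays. All late arrays lay far above all early arrays. The change was 5.36 ± 0.34 (SE), a 41-fold higher level (limma, adjusted p = 1.10e-08). CRYAB, a chaperone of mature oligodendrocytes and astrocytes, had levels of 9.79, 10.12, 9.49 and 9.58 at 80 d and 13.23, 13.24, 12.52 and 13.02 at 120 d. Its groups stood far apart, with a rise of 3.26 ± 0.28 (adjusted p = 6.59e-07). GJB1, or connexin 32, forms gap junctions in myelinating cells and had levels of 6.89, 6.99, 6.84 and 6.99 and then 8.90, 8.48, 8.44 and 8.16. The 80 d arrays were close together, and all 120 d arrays were higher (rise 1.57 ± 0.21, adjusted p = 6.56e-05). With the processed signal of the scanner files the rise was 3.11. The ferritin heavy chain FTH1 and the desaturase SCD, which are also expressed by other cells, did not pass, with changes of 0.08 and -0.01. Of the 27 listed oligodendrocyte genes only these 5 were found on the array under a symbol, and myelin basic protein (MBP) was not among them. TF is a plasma protein of the liver as well, so the list of plasma proteins was read beside it: of its 9 tested members 1 rose, TF itself, and 1 fell, the clotting inhibitor SERPINC1, while albumin (ALB) changed by -0.30 (adjusted p = 0.775). Of the 9, 4 had an unadjusted p under 0.05. APOA1 changed by 1.09, SERPINA1 by -1.11, TTR by -2.52, F2 by -0.38 and F9 by -0.001, none of them past the test. SERPINA1 passed with the processed signal (-3.22, adjusted p = 0.0331) and without 80 d replicate 1 or 3. F2 passed in several alternatives, among them without 80 d replicate 1 (adjusted p = 0.0312). Fetuin (AHSG) had 80 d levels of 8.16, 9.67, 8.96 and 14.50 and 120 d levels of 12.35, 11.67, 12.38 and 11.24. Its 80 d replicate 4 lay above all 120 d arrays, the others below them, and the change of 1.59 did not pass (adjusted p = 0.4) but was 2.98 and passed without that array (adjusted p = 0.00621).

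Of the 7 tested astrocyte genes 2 rose and none fell, 6 had positive changes and the median was 0.69. GFAP, the intermediate filament of mature astrocytes, had levels of 8.99, 8.71, 8.58 and 8.09 at 80 d and 10.62, 10.48, 10.23 and 10.45 at 120 d. The groups did not overlap, and the rise was 1.85 ± 0.27, or 3.61-fold (adjusted p = 1.62e-04). MT3, the metallothionein of brain that binds zinc, was already bright, with 13.73, 13.99, 14.29 and 14.06 and then 14.81, 15.21, 14.97 and 15.51. It rose by 1.11 ± 0.14 (adjusted p = 4.04e-05) and was the 1 passing member of the 8 tested genes of glucocorticoid activation and response, although it is a metal binding protein and not a defining target of cortisol. The water channel AQP4 was among the brightest at 80 d (mean 15.75) and changed by -0.08 (adjusted p = 0.975). The intermediate filament VIM, at a mean of 16.29, changed by 0.15, the glutamate transporters SLC1A3 and SLC1A2 by 0.69 and 0.18, and connexin 43 (GJA1) by 0.72, none of them past the test.

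PTGDS, which makes prostaglandin D2 and is a main product of the meninges and choroid plexus, had levels of 13.53, 13.76, 13.12 and 13.75 at 80 d and 16.90, 16.62, 16.66 and 16.49 at 120 d. Its rise of 3.13 ± 0.20 was 8.73-fold (adjusted p = 8.61e-09), and the arrays of each age were close together. The gap junction gene GJB2 (connexin 26) had levels of 7.96, 7.55, 7.50 and 7.52 and then 9.68, 9.31, 8.98 and 9.44. It rose by 1.72 ± 0.17 (adjusted p = 3.03e-06), and its 5 oligos, taken alone, rose by 1.01 to 3.08, so that the size but not the direction varied with the oligo. ALDH1A1, which makes retinoic acid, rose by 1.46 ± 0.43 (adjusted p = 0.0409), and COL2A1, a fibrillar collagen, by 1.38 ± 0.26 (adjusted p = 0.00191). Other matrix genes of connective tissue did not pass: DCN changed by 0.31, COL1A2 by 0.20 and COL3A1 by 0.11. Of the 5 choroid plexus and ependyma markers tested only PTGDS passed. Transthyretin (TTR), the most abundant product of the choroid plexus, had 80 d levels of 11.78, 12.37, 10.49 and 15.16 and 120 d levels of 11.34, 9.93, 10.31 and 8.16. The ages overlapped, with 80 d replicate 4 the highest and 120 d replicate 4 the lowest, and the change of -2.52 did not pass (adjusted p = 0.461). The part of choroid plexus or meninges in these rises was not tested.

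**Figure D2:**
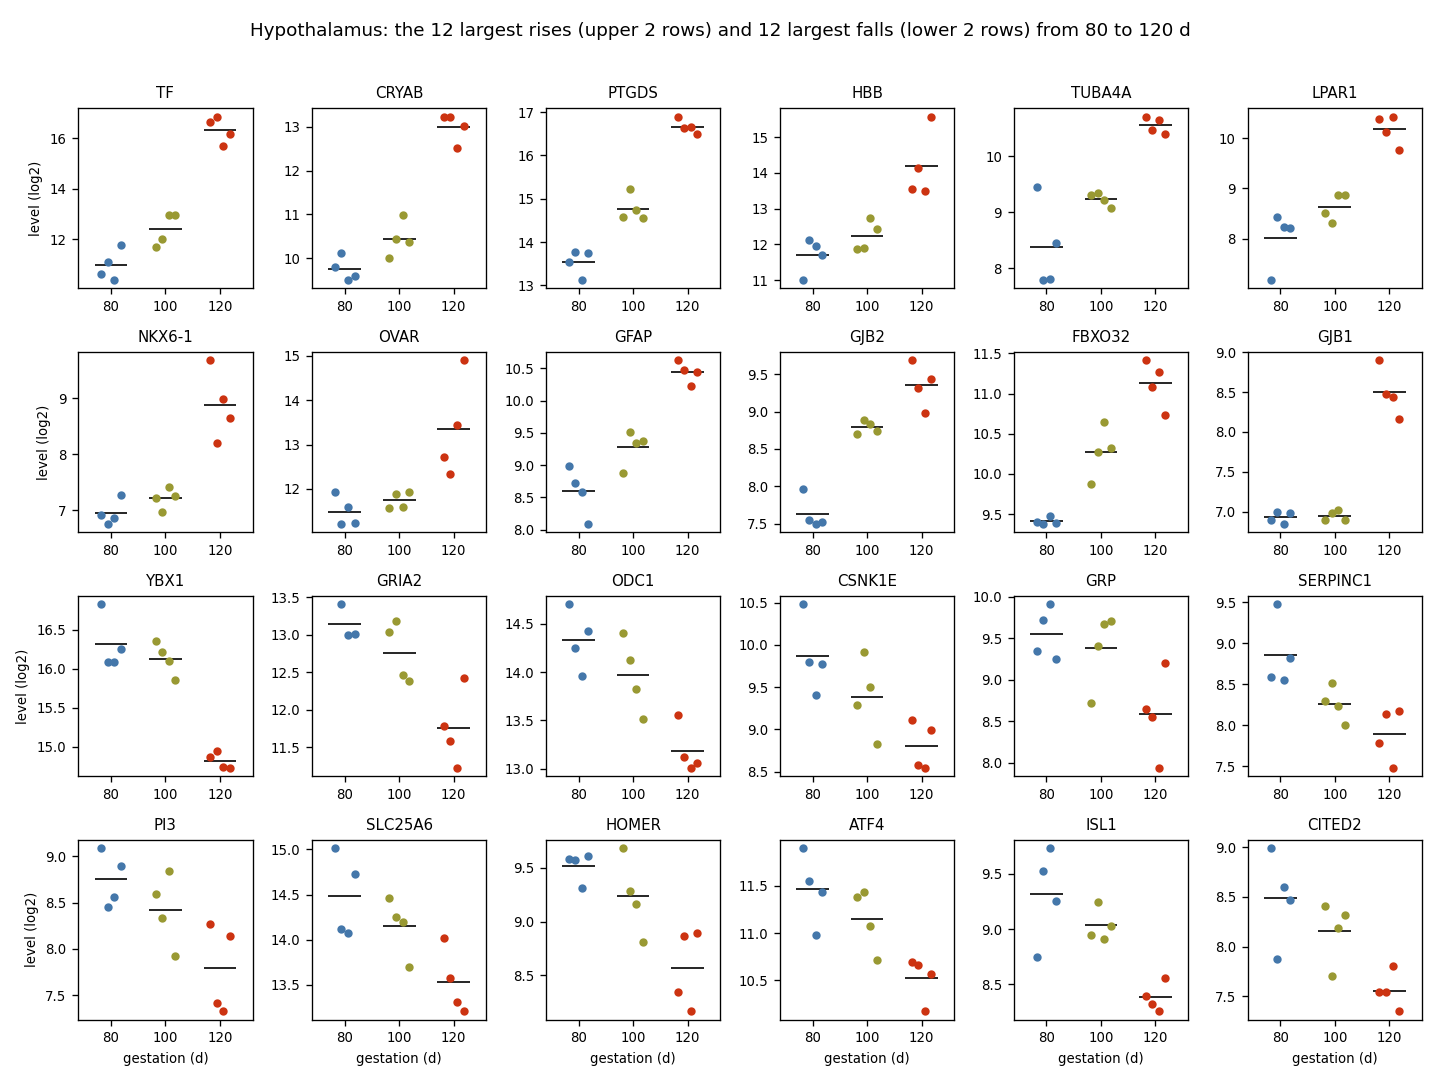
Levels on each array (log2) at 80, 100 and 120 d of gestation for the 12 largest rises and the 12 largest falls among genes with a symbol whose 80 d and 120 d arrays did not overlap. Points are arrays (4 per age, 3 for GRIA2 at 80 d) and lines are means, and for TF the mean went from 10.98 over 12.42 to 16.34.

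Among genes of neurons and synapses the members that passed went both ways, 2 higher and 1 lower of 10, and the median was -0.07. GRIA2, a subunit of the AMPA receptor for glutamate, had levels of 13.41, 13.00 and 13.01 on the 3 arrays measured at 80 d (replicate 1 carried an outlier mark) and 11.78, 11.58, 11.22 and 12.42 at 120 d. The fall of 1.39 ± 0.27 (adjusted p = 0.00308) rested on that mark: with marked spots kept the change was -0.64 (adjusted p = 0.523), and in the authors' table -0.59 (adjusted p = 0.517). Its partner GRIA1 changed by -1.46 (adjusted p = 0.102), with levels of 10.13, 9.15, 11.22 and 10.92 and then 9.45, 8.36, 9.32 and 8.45, whose ranges overlapped. The synaptic scaffold gene that the files name HOMER fell by 0.95 ± 0.23 (adjusted p = 0.013). PRNP, the prion protein, rose by 0.98 ± 0.27 (adjusted p = 0.0287), but its 4 oligos, tested alone, gave 0.09 to 2.42 and 1 of them passed, with a change of 0.71. NKX6-1, a homeobox factor of the ventral neural tube, had levels of 6.92, 6.75, 6.86 and 7.27 at 80 d and 9.68, 8.20, 8.99 and 8.65 at 120 d. The 80 d arrays were close to the dim end of the scale, and all 120 d arrays were higher (rise 1.93 ± 0.32, adjusted p = 5.51e-04, or 3.57 with the processed signal). TUBA4A, an alpha tubulin of mature axons and platelets, had 9.45, 7.79, 7.81 and 8.45 and then 10.70, 10.46, 10.64 and 10.39, and rose by 2.17 ± 0.30 (adjusted p = 9.04e-05). LPAR1, a receptor for lysophosphatidic acid that is also expressed by oligodendrocytes, rose by 2.17 ± 0.23 (adjusted p = 6.77e-06), by 2.31 and 2.02 with its 2 oligos.

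Of the 10 tested genes of hypothalamic identity 2 fell, none rose and the median was -0.36. ISL1, a LIM homeobox factor of arcuate neurons, had levels of 8.74, 9.52, 9.74 and 9.25 at 80 d and 8.39, 8.32, 8.26 and 8.56 at 120 d. The groups did not overlap and the fall was 0.93 ± 0.18 (adjusted p = 0.002), although of its 2 oligos, which overlap almost fully, oligo 1 fell by 1.13 (adjusted p = 0.00652) while oligo 2 changed by -0.74 without passing (adjusted p = 0.155). A probe that the files describe as the orphan receptor NR2F2, chosen after its values were seen, had 12.03, 11.91, 11.38 and 11.61 and then 9.96, 10.87, 10.19 and 11.27, a fall of 1.16 ± 0.27 (adjusted p = 0.01). NEUROD1, a factor of newborn neurons, changed by -1.31 (adjusted p = 0.114), which passed with only the 8 arrays in the fit (adjusted p = 0.0284). PAX6 changed by -0.57 (adjusted p = 0.0556) and passed with the processed signal, in the authors' table, with the replicate block and without 80 d replicate 3 (-0.98, -0.55, -0.57 and -0.71, adjusted p = 0.0212, 0.0466, 0.0462 and 0.0163).

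Of the 5 tested genes of the radial glia and progenitor list 2 fell, YBX1 and ODC1, and the median was -1.15. The other members did not pass: IGFBP2 changed by -1.76, PAX6 by -0.57 and VIM by 0.15. As the list was chosen with earlier results of these data known, its count and median are descriptive only. YBX1 had levels of 16.83, 16.08, 16.09 and 16.26 at 80 d and 14.87, 14.95, 14.74 and 14.73 at 120 d. The 120 d arrays were close together and all below the 80 d arrays, and the fall of 1.49 ± 0.29 left the level at 80 d 2.81-fold higher (adjusted p = 0.00265). Its 2 oligos, which lie in separate stretches, fell by 1.41 and 1.57. ODC1, the first enzyme of polyamine synthesis, had 14.70, 14.25, 13.96 and 14.43 and then 13.55, 13.12, 13.01 and 13.06, and fell by 1.15 ± 0.23 (adjusted p = 0.00376). CSNK1E, a kinase of the circadian clock and Wnt signalling, fell by 1.06 ± 0.30 (adjusted p = 0.0355), and a further probe described as the same kinase, chosen after its values were seen, by 1.20 (adjusted p = 0.012). The clock factor DBP rose by 0.93 ± 0.17 (adjusted p = 0.00141). RCAN1, an inhibitor of calcineurin, fell by 0.88 ± 0.15 (adjusted p = 0.00108), the tumour suppressor RASSF1 by 0.78 ± 0.12 (adjusted p = 2.94e-04) and the pentraxin PTX3 by 0.73 ± 0.10 (adjusted p = 8.69e-05). The stress factor ATF4, the mitochondrial carrier SLC25A6, the coactivator CITED2 and the protease inhibitor PI3 fell by 0.95, 0.96, 0.93 and 0.96. With its brightest probe CITED2 changed by -0.61 without passing (adjusted p = 0.347). The imprinted noncoding RNA GTL2, named by its description after its values were seen, went from 8.35, 7.46, 8.37 and 8.74 to 6.98, 6.95, 6.83 and 6.87, a fall of 1.33 ± 0.28 (adjusted p = 0.00439).

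Of the 61 listed genes of the cell cycle and DNA replication, 10 were found on the array under a symbol. None of these 10 passed in limma, 3 had an unadjusted p under 0.05, and 9 had negative changes, with a median of -0.16. The remaining listed genes were not tested, so the counts hold for these 10 only. Over all 12916 genes 2492 had an unadjusted p under 0.05 and 7057 had negative changes. Cyclin D2 (CCND2) changed by -0.92 (adjusted p = 0.138), the mitotic kinase CDK1 by -0.28 and PCNA, the clamp of DNA replication, by -0.04. The survival gene BCL2 changed by -0.80 (adjusted p = 0.38). Cytoplasmic actin (ACTG1), at levels near the top of the scale, fell by 0.55 ± 0.15 (adjusted p = 0.0313), and a further probe described as the same actin by 0.75.

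**Figure D3:**
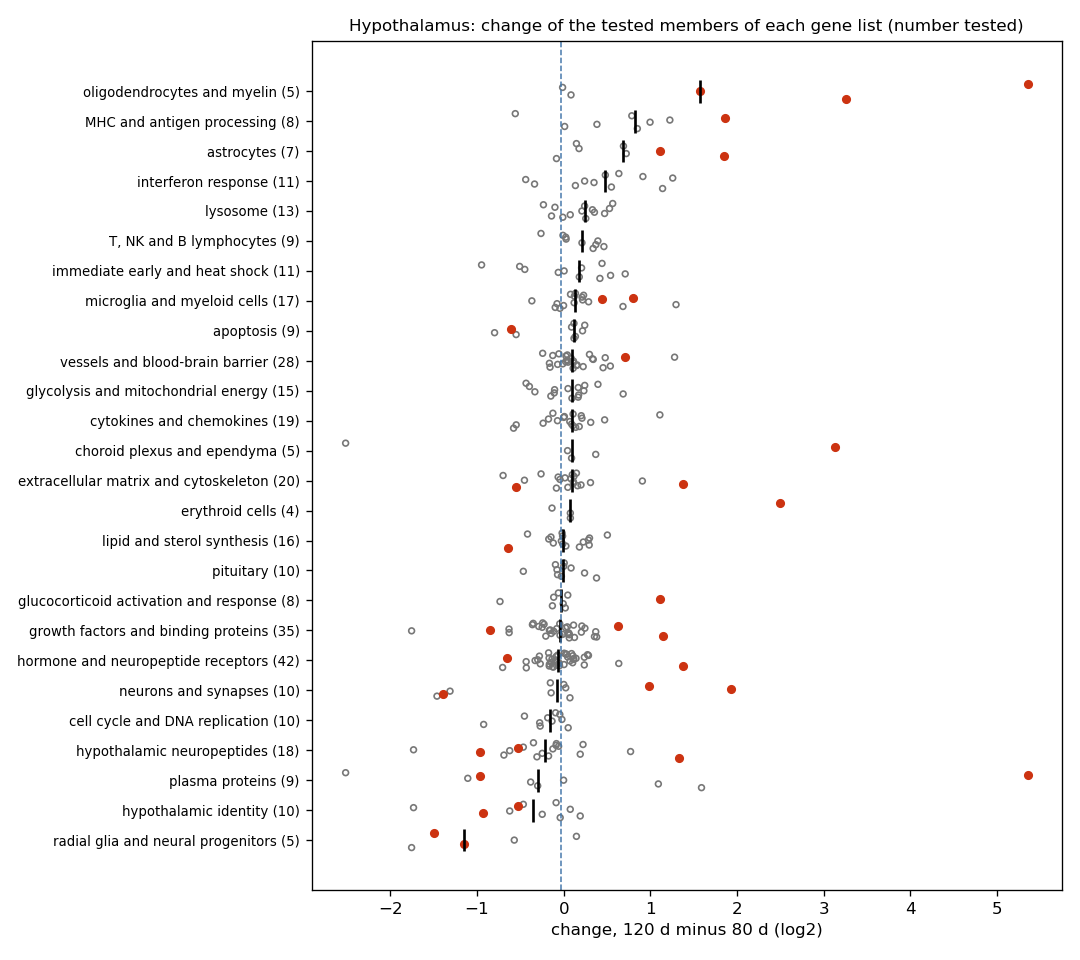
Change from 80 to 120 d (x axis, log2) of each tested member of 26 gene lists, with the number tested in brackets. Filled red points passed, open points did not, black bars are list medians and the dashed line is the median of all genes at -0.03, and the 3 passing members of the oligodendrocyte list are all on the right.

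Of 18 tested genes of hypothalamic neuropeptides and their processing, 1 rose and 2 fell, and the median was -0.21. ADCYAP1, which encodes the peptide PACAP, had levels of 11.35, 12.12, 12.54 and 11.93 at 80 d and 13.20, 13.26, 13.41 and 13.40 at 120 d. All 120 d arrays were higher, and the rise was 1.33 ± 0.29 (adjusted p = 0.00636). GRP, the gastrin releasing peptide, had 9.34, 9.72, 9.91 and 9.26 and then 8.65, 8.55, 7.94 and 9.20, close but separate ranges, and fell by 0.97 ± 0.28 (adjusted p = 0.0378). PMCH, the precursor of melanin concentrating hormone, was dim, with 7.83, 7.87, 7.54 and 7.61 and then 7.45, 7.11, 7.00 and 7.18, and fell by 0.53 ± 0.14 (adjusted p = 0.0261). Oxytocin (OXT) had levels of 11.73, 11.98, 11.45 and 12.22 at 80 d and 10.35, 10.38, 9.06 and 10.65 at 120 d. Every 120 d array was lower than every 80 d array, and the change of -1.73 ± 0.68 did not pass in the fit over all 6 ages (adjusted p = 0.15) but passed with only the 8 arrays in the fit (adjusted p = 0.0296). Its receptor OXTR had 7.43, 7.66, 7.17 and 7.15 and then 6.57, 6.77, 6.54 and 6.92, and was well above background on 4 arrays at 80 d and 2 at 120 d. OXTR fell by 0.65 ± 0.12 (adjusted p = 0.002), by 0.79 and 0.52 with its 2 separate oligos, and the change was -2.44 with the processed signal.

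The other peptides did not pass. In order of the change, galanin (GAL) gave -0.69, neuropeptide Y (NPY) -0.62, POMC -0.47, urocortin (UCN) -0.35, AGRP -0.31, gonadotropin releasing hormone (GNRH1) -0.25, the processing enzymes CPE and PCSK1 -0.17 and -0.13, somatostatin (SST) -0.09, neurokinin B (TAC3) -0.08, PTHLH -0.06, GHRH 0.19, substance P (TAC1) 0.22 and NPVF, the inhibitor of gonadotropin release, 0.77. Of 42 tested receptors for hormones and peptides 1 rose and 1 fell. AGTR1, the type 1 angiotensin receptor, had 7.49, 8.17, 7.28 and 6.32 and then 8.44, 8.44, 8.95 and 8.92, and rose by 1.37 ± 0.37 (adjusted p = 0.0249). The type 2 receptor AGTR2 changed by -0.17 (adjusted p = 0.396). The 40 that did not pass include the leptin receptor LEPR (-0.30), the glucocorticoid receptor NR3C1 (0.14), the oestrogen receptor ESR1 (0.64), the growth hormone receptor GHR (-0.15) and the corticotropin releasing hormone receptor CRHR1 (0.00). LEPR passed with the processed signal (-1.63, adjusted p = 0.0212), with its brightest probe (-0.57, adjusted p = 0.0479) and with probes filtered as well above background (-0.48, adjusted p = 0.0473). ESR1 passed without 120 d replicate 1 (1.34, adjusted p = 0.0262). OPRK1 passed with its brightest probe, ACVR2B with only the 8 arrays and ACVR2A with the replicate block. Of the enzymes that set local cortisol, HSD11B1, which activates it, changed by -0.01 and HSD11B2, which inactivates it, by -0.74 (adjusted p = 0.119). With its brightest probe HSD11B2 passed (-0.95, adjusted p = 0.033), as it did without 80 d replicate 2 (-1.02) or 4 (-0.96).

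Among 35 tested growth factors and binding proteins 2 rose and 1 fell, and the median was -0.04. FGF1, a mitogen that neurons retain, rose from 9.24 ± 0.27 to 10.38 ± 0.37 (SD, n = 4), by 1.15 ± 0.23 (adjusted p = 0.00376). FGF18, outside that list, fell by 0.88 ± 0.17 (adjusted p = 0.00298), placental growth factor (PGF) rose by 0.62 (adjusted p = 0.0202) and IGFBP5, which binds insulin-like growth factors, fell by 0.85 ± 0.20 (adjusted p = 0.0124). IGFBP2 changed by -1.76 without passing (adjusted p = 0.583), with 120 d levels of 8.08, 14.73, 13.50 and 12.18. The EGF family ligand AREG fell by 0.71 ± 0.18 (adjusted p = 0.0194). In energy metabolism PYGM, glycogen phosphorylase, rose by 1.38 ± 0.34 (adjusted p = 0.0147), and the glucose transporter SLC2A8 by 1.07 ± 0.20 (adjusted p = 0.00191). The neuronal glucose transporter SLC2A3 rose by 0.71 ± 0.20 (adjusted p = 0.0376) as the mean of 2 oligos, neither of which passed alone (0.15 and 1.26). SLC2A1, the transporter of the blood-brain barrier, changed by 1.28 (adjusted p = 0.365). Of 71 listed glycolytic and mitochondrial genes 15 were tested, and of 57 listed lysosomal genes 13. None of the tested genes passed in limma (3 and 2 at an unadjusted p under 0.05), with 0.69 for creatine kinase (CKB) and 0.57 for the sphingomyelinase SMPD1. With slide as a block SMPD1 (adjusted p = 0.0442) and the carrier SLC25A5 (adjusted p = 0.0356) passed, and with the replicate block the lysosomal lipase LIPA (adjusted p = 0.047) and UCP1 (adjusted p = 0.0474). Among enzymes of fatty acids ACACA fell by 0.64 ± 0.17 (adjusted p = 0.0217) as the 1 passing member of 16 lipid and sterol genes, and the carnitine transferase CPT1B, outside that list, by 0.69 ± 0.16 (adjusted p = 0.0102). FBXO32, a ubiquitin ligase subunit, had 9.40, 9.38, 9.47 and 9.39 and then 11.41, 11.09, 11.27 and 10.73. It was nearly constant within 80 d and rose by 1.72 ± 0.23 (adjusted p = 6.56e-05). Smaller changes that passed were found for CAPNS1, a calpain subunit (0.88), and CYP2J, ENDOG, PON2 and SLC25A26 (0.48 to 0.65), and in the other direction for COL4A3 of basement membranes (-0.91, well above background on 3 of the 4 arrays at 120 d) and NRP1, H3F3A, NUS1, CDKN2AIPNL, TRA2A and NTN4 (-0.69 to -0.45). H3F3A lost its call in 13 of 21 alternatives. Its change was -0.23 in the authors' table (adjusted p = 0.643) and -0.30 with outlier-marked spots kept (adjusted p = 0.58). NUS1 changed by -0.42 with its brightest probe, without passing (adjusted p = 0.212).

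The 2 oligos for HBB, adult beta globin, gave different answers. Oligo 1 had levels of 14.15, 15.06, 14.86 and 14.95 at 80 d and 14.94, 15.33, 14.49 and 16.33 at 120 d. It was bright at both ages, and its change of 0.51 ± 0.35 did not pass (adjusted p = 0.487). Oligo 2 had 7.85, 9.18, 9.03 and 8.45 at 80 d, 9.46, 9.88, 10.63 and 10.10 at 100 d and 12.18, 12.93, 12.48 and 14.82 at 120 d. The groups were in order of age without overlap, and oligo 2 rose by 4.48 ± 0.78 (adjusted p = 9.42e-04). The probe described as the fetal beta globin subunit, named after its values were seen, had 8.56, 9.54, 8.70 and 9.14 and then 8.71, 9.06, 7.77 and 9.18, which overlap, a change of -0.30 (adjusted p = 0.648). In the hypothalamus of the later ages oligo 2 had means of 12.26 at 130 d, 12.41 at 145 d and 11.74 after birth, and the fetal probe 8.25, 6.85 and 6.58. Sheep replace a fetal by an adult beta globin around birth, and which globin transcripts each oligo binds was not tested. The mean of both HBB oligos, the value of the gene in the fit, rose by 2.50 ± 0.49 (adjusted p = 0.00281). Of the other 3 erythroid markers none passed, with AHSP at 0.08, CA1 at 0.08 and EPOR at -0.14.

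Of the 8 tested genes of the MHC and antigen processing 1 rose, the median was 0.82, and 1 array stood above the rest. The class I gene OVAR had levels of 11.93, 11.21, 11.59 and 11.23 at 80 d and 12.72, 12.33, 13.44 and 14.90 at 120 d. The groups did not overlap, and the rise was 1.86 ± 0.55 (adjusted p = 0.0424), but the call was lost without 6 of the 8 arrays, and without 120 d replicate 4 the change was 1.34 (adjusted p = 0.158). By their descriptions 15 probes are for MHC class I, among them the 2 of OVAR, and 11 of the 15 share a run of at least 20 bases with another, so they are not independent. All 15 had positive changes, 0.98 to 2.90, and 9 passed when probes were tested singly. The array of 120 d replicate 4 was the highest of the 8 for each of the 15. Without it all 15 still had positive changes, 0.68 to 2.65, and 3 passed. For 8 of the 11 tested interferon response genes and 5 of the 8 genes of the MHC list the same array was the highest, against 11.2% of all genes. CXCL10, a chemokine induced by interferon, had 80 d levels of 7.56, 7.96, 7.98 and 7.84 and 120 d levels of 7.84, 8.25, 7.83 and 11.98. Replicate 4 alone stood out. The class II gene OLA-DRB1 had 8.30, 8.75, 8.92 and 9.24 and then 9.53, 9.01, 9.37 and 12.20, with the same array on top. Neither passed (adjusted p = 0.581 and 0.3), nor did any of the 11 interferon response genes in limma, 3 of which had an unadjusted p under 0.05. A probe described as class II DQA2, chosen after its values were seen, with 8.24, 7.74, 7.99 and 8.24 and then 9.38, 8.98, 9.95 and 12.59, rose by 2.17 (adjusted p = 0.0407) and did not pass without that array (1.39, adjusted p = 0.143). That array was alone of the 8 on its slide, so animal and slide cannot be told apart.

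**Figure D4:**
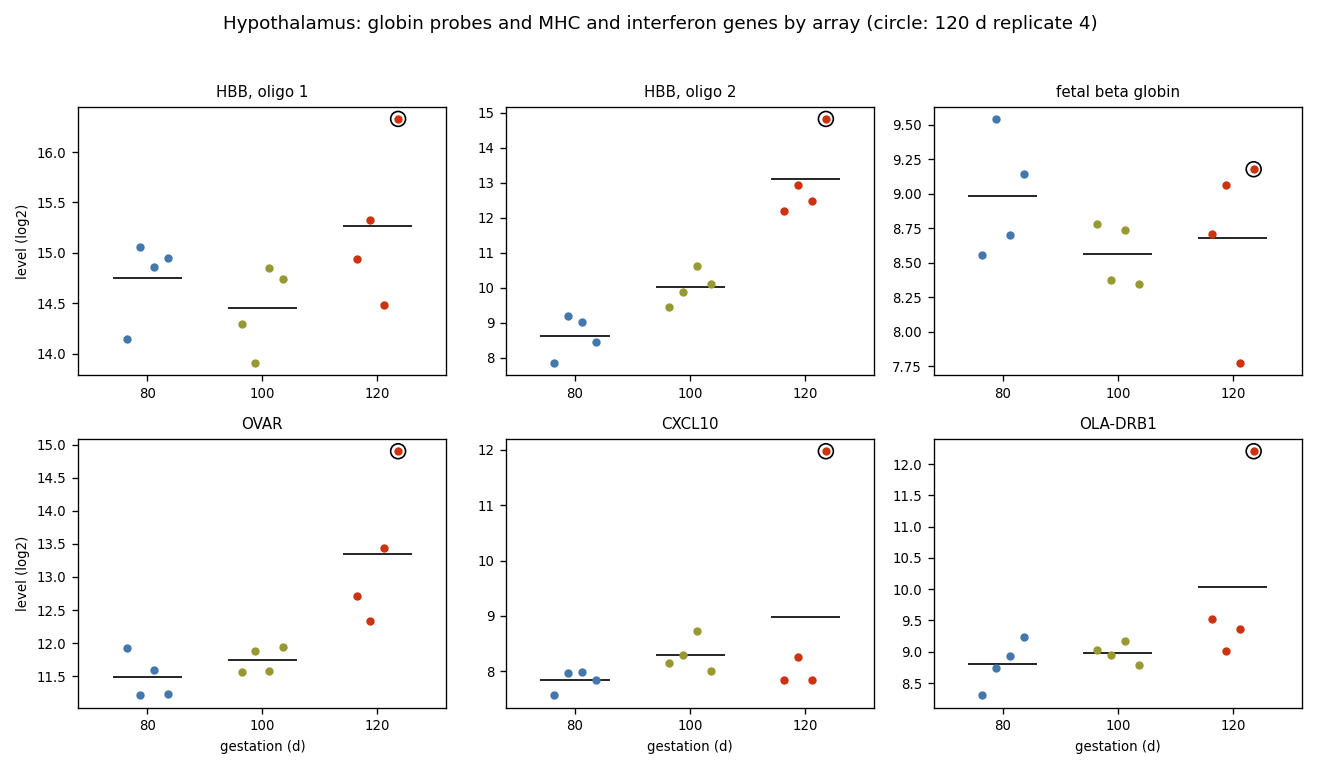
Levels (log2) on each array at 80, 100 and 120 d for the 3 globin probes (upper row) and for OVAR, CXCL10 and OLA-DRB1 (lower row), with lines at the means and a circle around 120 d replicate 4. CXCL10 was 11.98 on that array and 7.83 to 8.25 on the other 120 d arrays.

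Of 17 microglia and myeloid genes 2 rose, the pattern receptors TLR3 by 0.80 ± 0.23 (adjusted p = 0.0355) and TLR2 by 0.44 ± 0.11 (adjusted p = 0.0192), and the median was 0.13. Both were highest on 120 d replicate 4, and without it neither passed, with changes of 0.63 (adjusted p = 0.13) and 0.40 (adjusted p = 0.066). The integrin genes ITGAM and ITGB2 changed by 0.29 and -0.37. The lectin CLEC6A, not well above background on any 80 d array, was at least 1.30-fold higher at 120 d (adjusted p = 0.0118). None of the 9 lymphocyte genes passed in limma (1 at an unadjusted p under 0.05), CD3E changing by 0.37 and CD3D by 0.46. A probe described as the T cell receptor alpha chain, chosen after its values were seen, had 9.22, 9.93, 9.60 and 9.28 at 80 d, 10.39, 10.53, 10.79 and 10.76 at 100 d and 11.20, 12.21, 11.73 and 12.82 at 120 d. Its groups were in order of age, and it rose by 2.48 ± 0.34 (adjusted p = 8.45e-05), and passed without 120 d replicate 4 (adjusted p = 3.89e-04). None of 19 cytokine and chemokine genes and none of 11 immediate early and heat shock genes passed in limma (3 and 5 at an unadjusted p under 0.05). Of 28 tested genes of the vessel and blood-brain barrier list, only the neuronal glucose transporter SLC2A3 passed. Its call was lost in 11 of 21 alternatives. In alternatives JUN passed with its brightest probe (-0.91, adjusted p = 0.00228) and without 120 d replicate 1. MYC passed with its brightest probe (-0.78, adjusted p = 0.0213) and FOS with only the 8 arrays (0.54, adjusted p = 0.0316). CXCR4 passed without 80 d replicate 1 (adjusted p = 0.0489) or 120 d replicate 3 (adjusted p = 0.0353).

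From 80 to 100 d 15 genes passed (0.116%), 14 higher (0.108%) and 1 lower (0.00774%), and from 100 to 120 d 135 passed (1.05%), 85 higher (0.658%) and 50 lower (0.387%). These steps share the 100 d arrays with each other and the outer arrays with the main comparison, so the values are given side by side. TF changed by 1.44 ± 0.34 to 100 d without passing (adjusted p = 0.172) and rose by 3.92 ± 0.34 (adjusted p = 5.19e-06) from there. GJB1 changed by 0.02 and then 1.55 ± 0.21 (adjusted p = 6.00e-04), with 100 d levels of 6.89, 6.98, 7.02 and 6.90 close to the 80 d ones. The first step did not pass for the next 3 genes: CRYAB changed by 0.70 and then 2.56 (adjusted p = 5.06e-05), NKX6-1 by 0.26 and then 1.66 (adjusted p = 0.0113), and YBX1 by -0.18 and then -1.31 (adjusted p = 0.0276). GJB2 was the other way round, with 1.16 ± 0.17 (adjusted p = 0.00883) to 100 d and 0.56 (adjusted p = 0.171) after it. PTGDS passed in both steps, by 1.23 (adjusted p = 0.0123) and 1.89 (adjusted p = 3.38e-05). The larger part of the change lay before 100 d in 115 of the 393 genes that rose and in 156 of the 499 that fell, among those with a symbol in 13 of 32 and 7 of 31. At 145 d and on day 1 of life TF had means of 16.93 and 16.65, GFAP 10.91 and 12.55, GJB1 9.01 and 8.85, and YBX1 13.60 and 14.10.

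Between the same ages, the difference of means in cortex had the same sign as in hypothalamus for 58 of the 63 called genes with a symbol. The count was 58 in brainstem and 47 in hippocampus. These genes were chosen by their call in hypothalamus, and the same share over all genes was not worked out. Whether each of them changed in the other region was not tested. The difference of the changes was tested in 1 fit over all 95 arrays. By the methods of the study all regions were dissected from the same brains, but the labels do not tie arrays to animals, so that the fit treated the arrays as independent and its p values do not allow for shared animals. It passed for 90 genes against cortex (0.697%), 52 against brainstem (0.403%) and 81 against hippocampus (0.627%). Changes more positive in hypothalamus made up 0.286%, 0.186% and 0.271% of all genes in the 3 comparisons and more negative ones 0.41%, 0.217% and 0.356%. Against hippocampus 43.2% of the calls were more positive in hypothalamus, or 55.1% in the authors' table. Regions lay on separate slides throughout, so that region and slide cannot be told apart. GJB1 changed by 1.57 in hypothalamus, 0.27 in cortex and 3.25 in brainstem, a difference of 1.30 ± 0.32 from cortex (adjusted p = 0.0197) and of -1.68 ± 0.32 from brainstem (adjusted p = 0.0014). The change of CRYAB was 1.64 ± 0.40 above that in cortex (adjusted p = 0.0172). AREG fell here and had a change of 1.51 in cortex and 0.66 in hippocampus, differences of -2.22 ± 0.30 (adjusted p = 9.07e-07) and -1.36 ± 0.30 (adjusted p = 0.0126). AGTR1 rose here and had changes of -0.53 in brainstem and -0.90 in hippocampus, differences of 1.90 ± 0.41 (adjusted p = 0.00886) and 2.28 ± 0.41 (adjusted p = 6.70e-04). The prostaglandin F receptor PTGFR changed by 0.29 here and -1.61 in hippocampus (difference 1.90 ± 0.33, adjusted p = 3.68e-04), and NEUROD1 by -1.31 here and -3.79 in brainstem (difference 2.48 ± 0.56, adjusted p = 0.0136). TNMD, a tendon membrane protein, changed by -0.14 here and 1.07 in cortex (adjusted p of the difference = 2.44e-05). The differences of AREG and TNMD from cortex and of AGTR1 and PTGFR from hippocampus passed in each of the 10 alternatives run. That of CRYAB from cortex was lost without 120 d replicate 2 (and with the processed signal), that of GJB1 from cortex without 120 d replicate 1 (and with the processed signal), and that of AGTR1 from brainstem without 80 d replicate 4. With the processed signal the differences of GJB1 (adjusted p = 0.388) and NEUROD1 (adjusted p = 0.209) from brainstem and of AREG from hippocampus (adjusted p = 0.0528) were lost too. That of YBX1 from cortex, -1.21 (adjusted p = 0.0447), was lost without 80 d replicate 1, without 80 d replicate 4 and without each of the 120 d arrays.

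**Figure D5:**
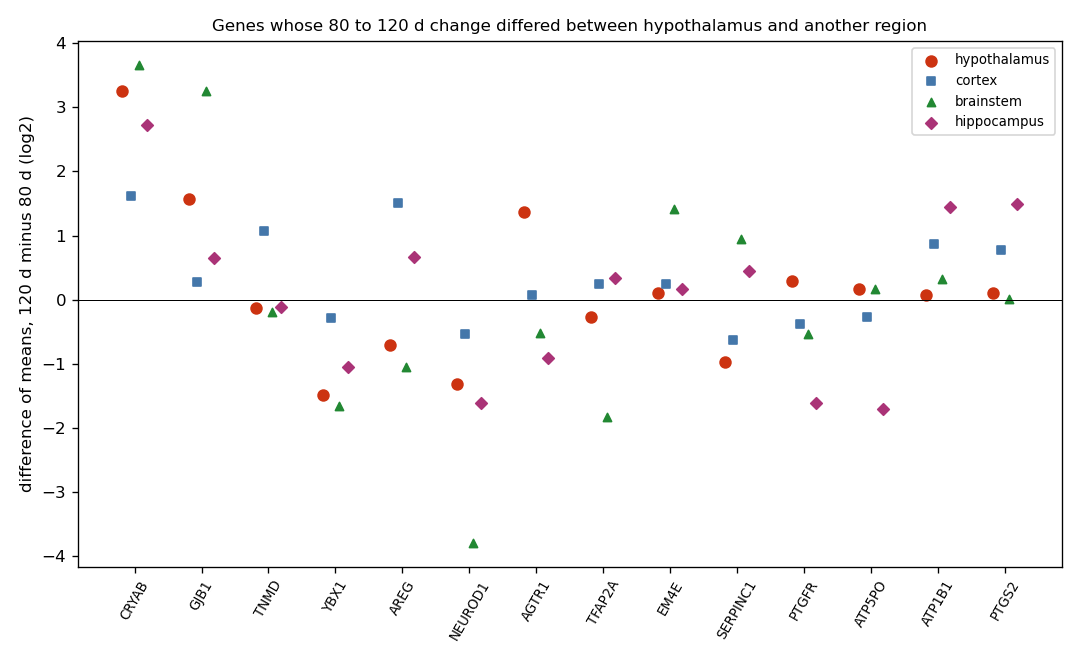
Difference of the mean levels at 120 d and 80 d (y axis, log2) in hypothalamus, cortex, brainstem and hippocampus for the genes with a symbol whose change differed most between hypothalamus and another region. AGTR1 is at 1.37 in hypothalamus and at -0.90 in hippocampus.

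Of the 63 genes with a symbol that passed, 26 passed in every one of the alternatives run for them, among them TF, CRYAB, PTGDS, GJB1, GJB2, GFAP, MT3, LPAR1, NKX6-1, TUBA4A, FBXO32, COL2A1, ADCYAP1, YBX1, ODC1, OXTR, RCAN1, RASSF1 and PTX3, and 30 lost their call without at least 1 of the 8 arrays, none changing direction. With the processed signal 21 of the 63 changed by over 1.5 times the value given here, among them AGTR1 (2.98), GJB2 (2.86), LPAR1 (3.29), PYGM (2.07), FGF18 (-1.66), COL4A3 (-2.22), PMCH (-1.14), IGFBP5 (-1.44), PTX3 (-1.26), RASSF1 (-1.25), TLR2 (1.11), TLR3 (1.66) and ACACA (-1.36). Without 80 d replicate 1, 21 were lost (among them ACTG1, ALDH1A1, ATF4, CDKN2AIPNL, CITED2, CSNK1E, CYP2J, GRP, H3F3A, NRP1, NUS1, OVAR, PI3, PMCH, PON2, PRNP, SLC25A26, SLC25A6, SLC2A3 and TLR3), at adjusted p values of 0.0508 to 0.161. Without 80 d replicate 2, 10 were lost (ACACA, AREG, CSNK1E, GRP, H3F3A, NTN4, OVAR, PMCH, PON2 and TLR2), at adjusted p values of 0.0549 to 0.0925. Without 80 d replicate 3, 9 were lost (CITED2, CYP2J, GRP, NRP1, OVAR, PGF, PI3, SLC25A26 and SLC2A3), at adjusted p values of 0.0569 to 0.101. Without 80 d replicate 4, 21 were lost (among them ACACA, ACTG1, AGTR1, ALDH1A1, AREG, CDKN2AIPNL, CITED2, CSNK1E, CYP2J, H3F3A, NRP1, NTN4, NUS1, OVAR, PI3, PRNP, SLC25A26, SLC25A6, SLC2A3 and TLR3), at adjusted p values of 0.0594 to 0.148. Without 120 d replicate 1, 13 were lost (among them ALDH1A1, CITED2, CYP2J, GRP, H3F3A, NRP1, PON2, PRNP, SLC25A26, TLR2, TLR3 and TRA2A), at adjusted p values of 0.0516 to 0.114. Without 120 d replicate 2, 17 were lost (among them ACACA, ACTG1, ALDH1A1, AREG, CDKN2AIPNL, CITED2, CSNK1E, CYP2J, GRP, PGF, PI3, PMCH, PON2, SLC25A26, SLC2A3 and TLR3), at adjusted p values of 0.0527 to 0.138. Without 120 d replicate 3, 24 were lost (among them ACACA, AGTR1, AREG, ATF4, CDKN2AIPNL, CSNK1E, CYP2J, GRP, H3F3A, HOMER, IGFBP5, NRP1, NTN4, NUS1, OVAR, PI3, PMCH, PON2, PRNP, SLC25A26, SLC25A6, SLC2A3 and TRA2A), at adjusted p values of 0.0529 to 0.153. Without 120 d replicate 4, 16 were lost (among them ACTG1, AGTR1, ALDH1A1, CDKN2AIPNL, CITED2, CSNK1E, H3F3A, NRP1, OVAR, PMCH, PRNP, SLC25A6, SLC2A3, TLR2 and TLR3), at adjusted p values of 0.0524 to 0.158.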

How the data were processed

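Total RNA of each sample was labelled with Cy3 and hybridised to an ovine oligonucleotide array. The deposited array files hold intensity values of each spot, mean and local background, written by Feature Extraction 10.1.1.1 per the file headers, while the methods of the study name another version of that software. The authors also deposited a table of normalized log2 values (11138 rows), used as an alternative only. From the intensities, background was corrected in limma 3.58.1 (R 4.3.3) by normexp with an offset of 50, log2 was taken and the 95 arrays were quantile normalized. Spots with an outlier mark were left out, and spots of a probe averaged. Probes were kept when at least 1.1 times as bright as the 95th percentile of the 77 negative control spots on 4 or more hypothalamus arrays (13468 of 15008). Probes of a gene were averaged, giving 12916 genes. Symbols came from the files and a table of RefSeq genes. Fits with lmFit and eBayes used the 24 hypothalamus arrays, and the differences between regions used 1 fit over all 95. Precision is limited by the number of arrays. Named were the 12 largest rises and falls without overlap, the members of 26 gene lists and other genes with a symbol that passed. The gene lists and members were chosen with earlier results of these data known. Listed genes not found on the array under a symbol were not tested, so list counts hold for the tested members only. The scripts were tested on simulated data. Alternatives covered background, normalization, filter, probes, samples, slide, replicate number, outlier marks and each array left out. 1 named result is not reported here.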

Additional observations from a re-analysis of the deposited data

Results flagged for a closer look

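In groups of 4 arrays, a single array lay apart from the other three of its age by Dixon's ratio in 6 of 124 groups of the called genes with a symbol, where chance alone marks about 1 in 20. GJB2 was 7.96 on 80 d replicate 1 against 7.50 to 7.55 on the others, and LPAR1 was 7.17 on the same array against 8.22 to 8.42. HOMER was 9.31 on 80 d replicate 3 against 9.57 to 9.60. At 120 d, CAPNS1 was 11.76 on replicate 1 against 11.45 to 11.50, ENDOG was 10.71 on replicate 3 against 11.17 to 11.23, and RASSF1 was 7.85 on replicate 4 against 7.62 to 7.64.

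The change from 80 to 120 d differed between hypothalamus and another region by the interaction term in limma for the genes that follow, all given as hypothalamus minus the other region on the log2 scale. Against cortex the differences were 1.64 for CRYAB, 1.30 for GJB1, -1.20 for TNMD, -1.21 for YBX1 and -2.22 for AREG. Against brainstem they were 2.48 for NEUROD1, 1.90 for AGTR1, 1.56 for TFAP2A, -1.31 for the gene the files name EM4E, -1.68 for GJB1 and -1.91 for SERPINC1. Against hippocampus they were 2.28 for AGTR1, 1.90 for PTGFR, 1.88 for ATP5PO, -1.36 for AREG, -1.37 for ATP1B1 and -1.39 for PTGS2. Of the 10 alternatives run for each, PTGS2 lost its call in 7, ATP5PO in 6, ATP1B1 in 3 and AREG from hippocampus in 1, EM4E in 8 and SERPINC1 in 4. TFAP2A, NEUROD1 and GJB1 from brainstem lost theirs with the processed signal (adjusted p = 0.719, 0.209 and 0.388). YBX1 from cortex lost its call in 7, CRYAB and GJB1 from cortex in 2 each. Region and slide cannot be told apart.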

How the results depend on the processing

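The 892 genes that passed became 691 to 1100 under the alternatives that kept all 8 arrays and 619 to 849 with 1 array left out. The lowest was without 120 d replicate 3 and the highest without 80 d replicate 3, where 36.9% of the calls were rises against 44.1% of the 892. With only the 8 arrays in the fit 530 of the 892 were shared, and 27 of the 63 genes with a symbol were lost. With slide as a block 1022 passed and 12 of the 63 were lost. Replicate numbers were shared between ages, but deviations of same-numbered arrays correlated at 0.384, 0.499, 0.426 and -0.216, so not every pair correlated, the labels give no pairing, and the numbers were not taken to pair the samples. With the replicate block 1100 passed, 870 of them shared, and GRP and OVAR were lost among the 63. Of the 62 genes with a value in the table of the authors, 58 passed there. None of the 63 changed direction under any alternative run. The direction of the other called genes was not followed. The difference from hippocampus, 81 genes, ranged from 40 to 89 with 1 array left out, and was 40 without 80 d replicate 1, 53 without 80 d replicate 4, 43 without 120 d replicate 1 and 49 without 120 d replicate 3. The difference from cortex, 90 genes, ranged from 73 to 130, and from brainstem, 52 genes, from 38 to 61. The cause of these shifts was not tested. Probes near the lowest signal well above background, 6.48 at the median array, give compressed changes, and 28 called genes had fewer than 4 arrays with a value in a group.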
